A study of Mus musculus with 12 samples.

Results

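The livers described here came from mice without Mlkl, and the comparison is between 3 Mlkl-/- animals on a high-fat diet (HFD) and 3 Mlkl-/- animals on normal chow (ND), 6 of the 12 libraries of the series. The 6 were chosen by their genotype and diet labels and by nothing measured. Both groups carry the Mlkl-/- genotype and differ in their food: the HFD was 36% fat, with lipid supplying 59% of the energy, and the ND was chow. The other 6 libraries are 3 WT HFD and 3 WT ND livers, used here to estimate the spread between animals and to read the Mlkl-/- response beside. The mice were 8 to 9 weeks old when the diets began. The labels give 25 weeks of diet for each animal, whereas the series text gives 16 to 25 weeks, and it adds that the livers taken for RNA were picked for organ weights near the mean. Whether the Mlkl-/- animals share litters with the wild-type animals is stated in no source used here. RNA levels were read from the 3' ends of polyadenylated transcripts (QuantSeq 3' libraries), so 1 read stands for 1 transcript end and values are CPM, read counts scaled to a common library total with TMM factors.

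MLKL is the protein that, once phosphorylated by RIPK3, breaches the plasma membrane at the end of necroptosis, an inflammatory form of programmed cell death. A liver fed excess fat takes up fatty acids and lipoprotein remnants, esterifies them into triglyceride stored in droplets, and disposes of them by export in lipoproteins and by oxidation in mitochondria and peroxisomes. The fatty acid sensor PPAR-alpha controls many genes of that oxidation. Fat feeding is also known to lower several drug-metabolising enzymes of hepatocytes and, as steatohepatitis develops, to draw in macrophages.

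Mlkl itself was at 0.763, 0.433 and 1.40 CPM in the Mlkl-/- HFD livers and at 0.786, 0.664 and 0.790 CPM in the Mlkl-/- ND livers, against 5.37, 7.65 and 4.24 CPM in WT HFD livers and 3.08, 3.73 and 3.01 CPM in WT ND livers. All 6 Mlkl-/- libraries lay below all 6 wild-type libraries, with a few reads left. A 3' tag outside a deleted stretch would still be counted, and no source used here says which part of the gene the allele lacks. The hepatocyte marker Alb, serum albumin, was at 51495, 70724 and 54120 CPM in HFD livers and 45483, 71458 and 60849 CPM in ND livers. The 6 Mlkl-/- libraries held 20721493 to 26535219 counts.

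The libraries did not group cleanly by diet, and 1 ND library stood apart from the other ND libraries. Over 10864 genes the root mean square log2 difference of Mlkl-/- ND replicate 1 was 0.534 to ND replicate 2 and 0.593 to ND replicate 3, whereas replicates 2 and 3 differed by 0.315. Its differences to the 3 HFD libraries were 0.501 to 0.524, no larger than to its own group. HFD replicate 3 differed by 0.391 from HFD replicate 1 and by 0.481 from HFD replicate 2. It differed by 0.472 and 0.469 from ND replicates 2 and 3, so it was no closer to HFD replicate 2 than to these. The summed raw CPM of 8 loci that split the series (Mir6236, Gm23935, Gm24270, Gm24187, Gm25911, Gm24245, Gm15564 and Lars2) was 6964, 3484 and 5536 in HFD livers, against 9239, 490 and 656 in ND livers, so replicate 1 sat with the HFD libraries. The clock gene Arntl was at 2.00, 1.83 and 1.896 CPM in HFD livers, against 1.18, 4.74 and 11.8 CPM in ND livers, and its dimer partner Clock was likewise lowest within ND in replicate 1. No source used here gives the time of day of collection, and the part of clock genes in the results was not tested.

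**Figure D1:**
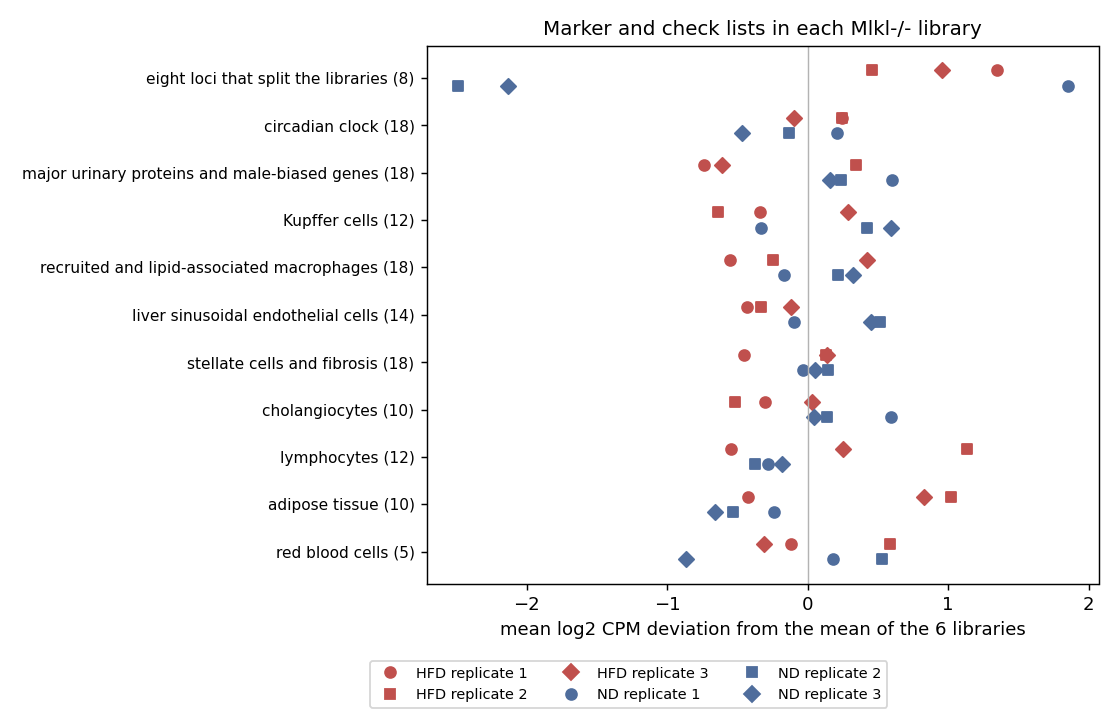
Marker and check lists in the 6 Mlkl-/- libraries: each point is 1 library's mean log2 CPM deviation, over the tested members of a list (number in brackets), from the mean of the 6 libraries, with HFD in red above ND in blue. ND replicate 1 (blue circle) lies with the HFD libraries for the 8 loci and below the other ND libraries for the Kupffer, macrophage and endothelial lists.

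HFD livers without Mlkl raised genes that move lipid between membranes, lipoproteins and cells, cytosolic and mitochondrial acyl-CoA thioesterases and a pair of antigen-processing genes, and lowered 5 of 9 tested Cyp3a cytochromes P450. Of 18098 genes tested, 65 differed between HFD and ND at an adjusted p under 0.05 (0.359%), 38 higher in HFD (0.210%) and 27 lower (0.149%), by edgeR's quasi-likelihood test with Benjamini-Hochberg adjustment over all tested genes. All 65 had groups that did not overlap, which was also true of 8.02% of all tested genes in the higher direction and 7.49% in the lower, and 53 of the 65 differed by more than 2-fold. The median log2 fold change of all tested genes was -0.02. At an unadjusted p under 0.05 there were 2459 genes.

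The number of calls moved with which livers were in the fit. Without ND replicate 1 there were 729 calls (3.92% of 18590 genes tested), 427 higher (2.30%) and 302 lower (1.62%), and the 65 were all among them. Without ND replicate 3 there were 13, without ND replicate 2 27, and without HFD replicate 1 15. With the level of the 8 loci as a term 27 genes were called (0.0774% of genes higher, 0.0718% lower), of which 17 were among the 65. That level was high in every Mlkl-/- HFD library and, of the Mlkl-/- ND libraries, only in replicate 1, so it is partly confounded with diet. A call lost under this term is therefore not by itself a smaller change. Of the 17, Osbpl3, Pltp, Fabp2, Vldlr, Gpc1, Sulf2, Ankmy1, Acot2, Acot5, Tmem86a and Tap1 were higher in HFD. Cyp3a59, Hdc, Rbm3, Rbm3-ps, Tmed9 and Med12l were lower. The rest of the 65 lost the call under this term, also where that is not repeated below. DESeq2 called 514 genes (2.84%, with 1.71% higher and 1.13% lower), with the 65 among them. Scaling by library size alone gave 81 higher and 19 lower calls in place of 38 and 27. Osbpl3, Pltp, Fabp2, Sulf2 and Cyp3a59 were called in each of the 23 alternatives.

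The sample titles carry a code next to the diet, 25 or 29 for HFD and 23 or 27 for ND, and no source used here explains it. A lower and a higher code occur in both Mlkl-/- groups, with HFD replicate 3 alone at the higher HFD code and ND replicate 1 alone at the lower ND code. The groups of the 65 genes do not overlap, which fixes the direction within each code, so the sizes are given. Osbpl3 differed by 2.16 on the log2 scale within the lower codes and by 2.74 within the higher, and Cyp3a11 by -3.46 and -2.99. With the code as a term 46 genes were called (0.254%, with 0.149% higher and 0.105% lower), 39 of them among the 65.

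**Figure D2:**
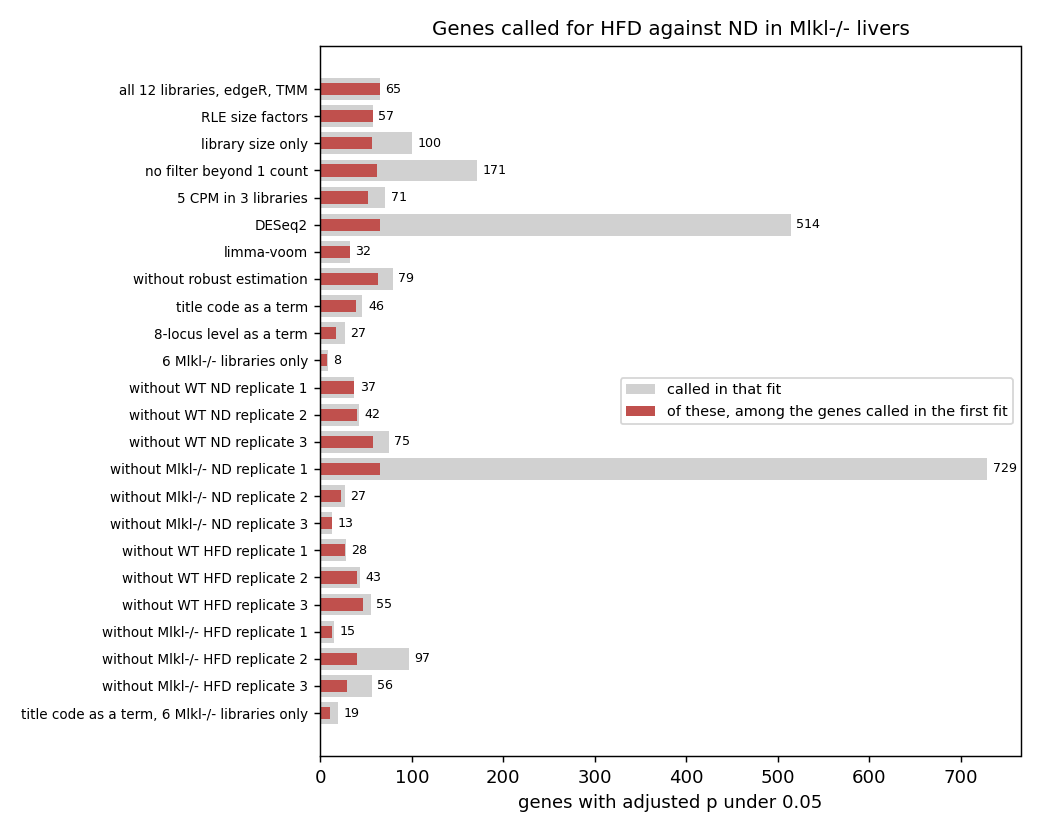
Number of genes called for Mlkl-/- HFD against Mlkl-/- ND at an adjusted p under 0.05 under each setting (grey bars, from 0), with the part shared with the 65 genes of the first fit in red. Leaving out ND replicate 1 gives 729 calls and DESeq2 514, both holding all 65, and the other settings give 8 to 171.

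Proteins that carry lipid between membranes and particles had 5 calls, all higher. Of 23 tested members of a list of lipid uptake, binding and transfer genes, 5 rose, Osbpl3, Pltp, Fabp2, Mfsd2a and Vldlr, and none fell. The median log2 fold change of the 23 was 0.32, 17 of them were positive, and without ND replicate 1 there were 6 calls. Under the 8-locus term Mfsd2a lost its call (adjusted p = 0.142) at a log2 fold change of 1.66, and the other 4 were called. Osbpl3, an oxysterol-binding-protein relative that transfers lipid at membrane contacts, was at 14.5, 19.4 and 14.9 CPM in HFD livers and at 3.68, 2.61 and 1.78 CPM in ND livers. The lowest HFD liver was far above the highest ND liver, ND replicate 1, and the log2 fold change was 2.60 ± 0.27 (SE, adjusted p = 0.000832). Pltp, the plasma phospholipid transfer protein that remodels HDL, was at 83.1, 73.3 and 123 CPM in HFD livers and at 17.6, 18.2 and 13.7 CPM in ND livers. Every HFD value was far above the ND values, at a log2 fold change of 2.50 ± 0.29 (SE, adjusted p = 0.00536).

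Fabp2, the fatty acid-binding protein best known from the intestine, was at 194, 128 and 152 CPM in HFD livers and at 40.3, 58.2 and 49.99 CPM in ND livers. Both groups were tight and well apart, with a log2 fold change of 1.68 ± 0.18 (SE, adjusted p = 0.000832). Mfsd2a, a transporter of lysophosphatidylcholine and of the docosahexaenoic acid it carries, was at 150, 174 and 81.7 CPM in HFD livers and at 44.5, 31.1 and 50.9 CPM in ND livers. HFD replicate 3 was the lowest of its group but still above the ND livers, and the log2 fold change was 1.68 ± 0.27 (SE, adjusted p = 0.0246). Vldlr, the receptor that takes up triglyceride-rich particles, was at 6.15, 2.31 and 3.05 CPM in HFD livers and at 0.147, 0.576 and 0.355 CPM in ND livers. It rested on 3, 13 and 9 reads in the ND livers and was above 2 CPM in each HFD liver, at a log2 fold change of 3.38 ± 0.48 (SE, adjusted p = 0.00654). The most abundant members of the list were not called: Fabp1, the main fatty acid-binding protein of hepatocytes, had 4191, 2668 and 2208 CPM in HFD livers and 1689, 1975 and 1269 CPM in ND livers (adjusted p = 0.114), and Slc27a2 had an adjusted p of 0.376. Cd36, the fatty acid translocase, had 121, 42.5 and 147 CPM in HFD livers and 24.1, 49.9 and 45.3 CPM in ND livers, with HFD replicate 2 inside the ND range.

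**Figure D3:**
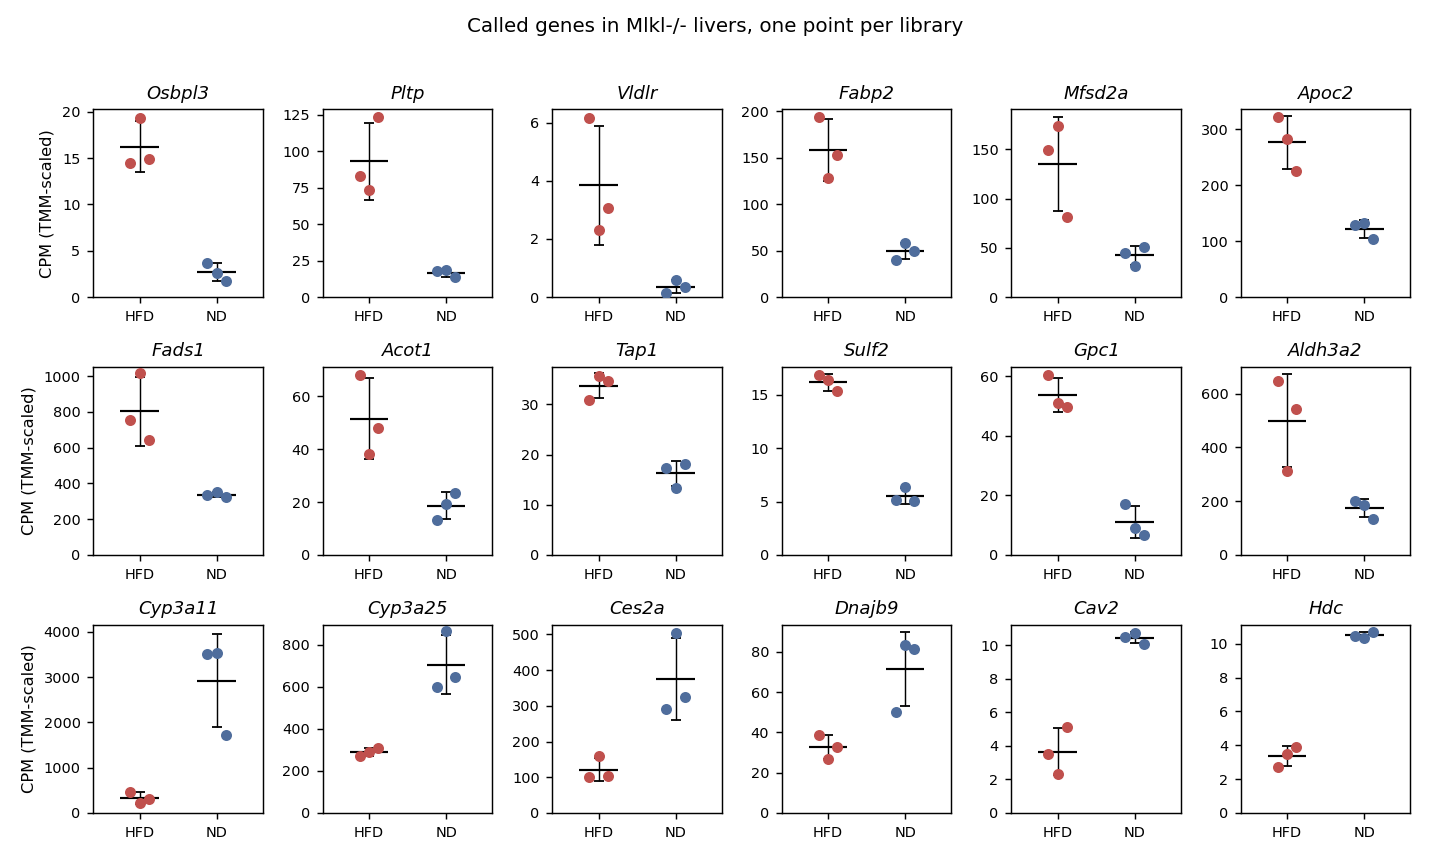
CPM (linear axes from 0) of 18 called genes in each Mlkl-/- library, HFD left of ND; the bar is the mean and the whisker 1 SD of 3 livers. The HFD and ND points do not overlap in any panel: 12 genes are higher in HFD, Osbpl3 to Aldh3a2, and 6 lower, Cyp3a11 to Hdc.

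Among apolipoproteins and lipases the calls were single genes. Apoc2, the cofactor that lipoprotein lipase needs to clear triglyceride-rich particles, was at 321, 282 and 226 CPM in HFD livers and at 129, 132 and 103 CPM in ND livers. The lowest HFD liver was above the highest ND liver by a wide margin, and the log2 fold change was 1.18 ± 0.20 (SE, adjusted p = 0.0246). It was the only one of 16 tested lipoprotein assembly genes called, and the median of the 16 was 0.14. Under the 8-locus term it lost the call (adjusted p = 0.0945). Apoa4, which in mouse liver is known to climb with hepatic fat, was at 1980, 1331 and 1495 CPM in HFD livers and at 484, 118 and 194 CPM in ND livers. Its groups did not overlap, yet its adjusted p was 0.099 with all libraries and 0.0207 without ND replicate 1, the highest of the ND livers. Without that replicate Apob, the structural protein of VLDL, and the cholesterol exporter Abca1 were called lower. Apob was at 4408, 4492 and 4482 CPM in HFD livers and at 4749, 6822 and 7994 CPM in ND livers (adjusted p = 0.205 with all libraries and 0.0328 without ND replicate 1).

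Lipid droplet genes leaned one way with few calls. All 18 tested members of that list had a positive log2 fold change, with a median of 0.62, 8 had HFD livers above all ND livers, against 8.02% of all tested genes, and 1, Lipe, was called. Lipe, hormone-sensitive lipase, was at 24.04, 17.3 and 18.6 CPM in HFD livers and at 11.6, 7.80 and 6.91 CPM in ND livers, a log2 fold change of 1.19 ± 0.23 (SE, adjusted p = 0.0458). It lost the call with the 8-locus level (adjusted p = 0.213) or the title code (0.0658) as a term. Without ND replicate 1, 5 were called: Lipe, Fitm1, Fitm2, Pnpla2 and Mgll, proteins that form droplets or split their triglyceride. Cidea, which enlarges droplets, was at 5.68, 0.529 and 13.7 CPM in HFD livers and at 0, 0.0443 and 0.118 CPM in ND livers (adjusted p = 0.0916). Its relative Cidec was at 60.4, 9.48 and 55.0 CPM in HFD livers and at 10.7, 5.49 and 5.09 CPM in ND livers. HFD replicate 2 was the low liver of the HFD group for both, as it was for Cd36 and for Mogat1, an enzyme of triglyceride synthesis that had 5.82, 0.529 and 4.37 CPM in HFD livers and 0.344, 0.266 and 0.276 CPM in ND livers (adjusted p = 0.0515). Plin2, the main droplet coat of hepatocytes, overlapped between the groups, and none of the 11 triglyceride synthesis genes was called.

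Enzymes that make and desaturate fatty acids had 1 call. Fads1, the delta-5 desaturase of polyunsaturated fatty acid synthesis, was at 755, 1014 and 640 CPM in HFD livers and at 336, 352 and 323 CPM in ND livers. The ND livers were nearly alike and every HFD liver was well above them, with a log2 fold change of 1.25 ± 0.17 (SE, adjusted p = 0.00654). Of the 22 tested members of the list 21 were positive, the median was 0.73 and 11 had HFD above ND in all livers, against 8.02% of all tested genes. Under the 8-locus term Fads1 had an adjusted p of 0.056 and none was called. The most abundant, Scd1, the stearoyl-CoA desaturase, was at 8736, 6215 and 11884 CPM in HFD livers and at 3157, 5044 and 3960 CPM in ND livers (adjusted p = 0.099), and Elovl2 had an adjusted p of 0.121. DESeq2 called 8 of the 22. Acacb, the mitochondrial acetyl-CoA carboxylase, was called without ND replicate 1 (adjusted p = 0.00129), and it was at 151, 99.7 and 97.6 CPM in HFD livers and 59.3, 24.8 and 20.0 CPM in ND livers.

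Thioesterases, which split acyl-CoA into free fatty acid and coenzyme A, had 3 of 12 tested members called, all higher: Acot1, Acot2 and Acot5, neighbours within chromosome 12 at chr12:83987861-84076020 (mm10). Acot1, the cytosolic enzyme, was at 68.2, 38.2 and 47.9 CPM in HFD livers and at 13.2, 19.1 and 23.5 CPM in ND livers. The groups did not overlap, and the log2 fold change was 1.46 ± 0.26 (SE, adjusted p = 0.0353). Acot2, the mitochondrial enzyme, was at 35.4, 18.0 and 21.1 CPM in HFD livers and at 6.04, 9.12 and 11.0 CPM in ND livers, a log2 fold change of 1.504 ± 0.24 (SE, adjusted p = 0.0184). Acot5, a peroxisomal member, was at 6.92, 4.76 and 9.85 CPM in HFD livers and at 1.52, 2.79 and 2.37 CPM in ND livers (log2 fold change 1.68, adjusted p = 0.0208). HFD replicate 2 was the lowest HFD liver for each of the 3. Under the 8-locus term Acot1 lost its call (adjusted p = 0.0968), as it did with the title code (0.0706). The 3 are close paralogs. The last 200 bases of their longest transcripts were 46.5% to 49.5% identical after alignment, and sharing of reads among them was not tested. The median of the 12 was 0.82, and the list's most abundant member, Acot12, was at 94.9, 92.2 and 103 CPM in HFD livers and at 96.2, 105 and 89.7 CPM in ND livers.

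Fatty acid oxidation and PPAR-alpha target genes mostly sat above ND without passing the test. Of 31 tested members 30 were positive, the median was 0.52, and 17 had all HFD livers above all ND livers, against 8.02% of all tested genes. The one call was Decr2, the peroxisomal 2,4-dienoyl-CoA reductase, at 266, 245 and 208 CPM in HFD livers and 146, 142 and 110 CPM in ND livers (log2 fold change 0.85, adjusted p = 0.0352). Without ND replicate 1 the count was 9, with DESeq2 12, and under the 8-locus term 0 (Decr2 adjusted p = 0.195). Cyp4a14, a fatty acid omega-hydroxylase and a textbook PPAR-alpha target in mouse, was at 1118, 194 and 750 CPM in HFD livers and at 58.3, 65.5 and 64.3 CPM in ND livers. The ND livers were alike and the HFD livers spread widely, with replicate 2 the lowest, at an adjusted p of 0.0636. Aldh3a2, the fatty aldehyde dehydrogenase, was called: it was at 646, 311 and 541 CPM in HFD livers and at 200, 185 and 135 CPM in ND livers, a log2 fold change of 1.53 ± 0.24 (SE, adjusted p = 0.0169, and 0.112 under the 8-locus term). Tmem86a, a lysoplasmalogenase that degrades ether lipids, rose as well, with 24.6, 26.6 and 17.4 CPM in HFD livers and 7.42, 8.99 and 5.49 CPM in ND livers (log2 fold change 1.65, adjusted p = 0.00654).

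**Figure D4:**
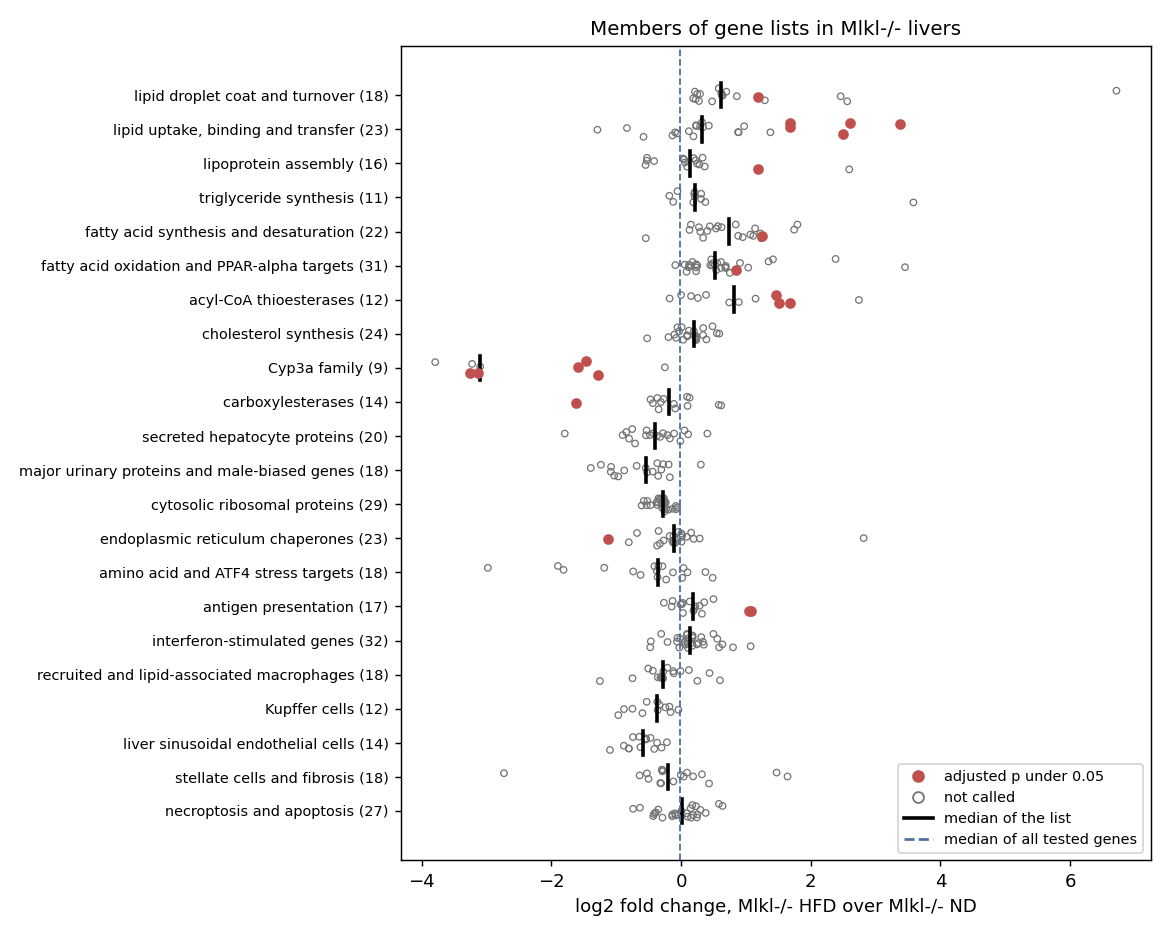
Log2 fold change (Mlkl-/- HFD over Mlkl-/- ND) of each tested member of 22 gene lists, with the number tested in brackets; red points have an adjusted p under 0.05, black bars are list medians and the dashed line the median of all tested genes, -0.02. The Cyp3a family lies farthest to the left with a median of -3.10, and the lipid lists lie to the right of the dashed line.

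Cell surface heparan sulfate, the sugar that captures lipoproteins and growth factors, was touched at its core protein Gpc1 and its editor Sulf2, which removes sulfate from it. Gpc1, the lipid-anchored glypican-1, was at 60.4, 51.3 and 49.6 CPM in HFD livers and at 17.3, 9.21 and 6.75 CPM in ND livers. ND replicate 1 was the highest ND liver, and the log2 fold change was 2.28 ± 0.29 (SE, adjusted p = 0.00654). Sulf2 was at 16.9, 16.4 and 15.3 CPM in HFD livers and at 5.11, 6.38 and 5.05 CPM in ND livers. Both groups had very little spread, at a log2 fold change of 1.55 ± 0.19 (SE, adjusted p = 0.00298). The other 20 of 22 tested members of the list were not called, and its median was -0.07, with a sign that changed with the 8-locus term (0.04). Sdc4 and Sdc1, the most abundant core proteins, had adjusted p-values of 0.696 and 0.166. Ankmy1 rose with Gpc1 (log2 fold change 2.81), but the 2 genes lie on opposite strands and overlap by 977 bases at their 3' ends on chromosome 1, and with the strand setting of the counting not given their reads cannot be told apart.

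Other membrane proteins rose at low levels. Unc5b, a netrin receptor, was at 8.06, 6.69 and 8.70 CPM in HFD livers and at 2.41, 3.72 and 2.29 CPM in ND livers (log2 fold change 1.48, adjusted p = 0.0312). Aqp4, a water channel, was at 11.1, 16.7 and 5.98 CPM in HFD livers and at 1.72, 3.90 and 2.61 CPM in ND livers (2.03, adjusted p = 0.0352). Adgrv1, an adhesion receptor, and Lrp4, of the LDL receptor family, had log2 fold changes of 2.40 and 0.81. Adora1, the adenosine A1 receptor, and Mybph rose by 1.09 and 1.12 on the log2 scale, but they face each other on chromosome 1 and overlap by 2010 bases, so a count for one may hold reads of the other. Bmf, a pro-apoptotic BH3-only protein that is on none of the gene lists, was at 9.35, 18.6 and 16.1 CPM in HFD livers and at 5.25, 6.33 and 3.67 CPM in ND livers (1.53, adjusted p = 0.0384).

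Ctse, Synpo2, Zfp423, Wipf3, Egln3, Afg1l and LTO1 rose as well. Egln3, an oxygen-sensing prolyl hydroxylase that acts on HIF, was at 14.7, 16.8 and 15.3 CPM in HFD livers and at 8.40, 8.90 and 9.00 CPM in ND livers (0.83, adjusted p = 0.0458). Ctse, cathepsin E, rested on 13, 5 and 23 reads in HFD livers and on 0, 1 and 0 reads in ND livers, and Zfp423, a zinc finger factor, on 19, 10 and 25 reads against 2, 1 and 3. No fold change is given for this pair.

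Antigen processing gave a pair of calls that share a promoter. Tap1, the transporter that brings peptides to MHC class I, was at 30.9, 35.7 and 34.6 CPM in HFD livers and at 17.4, 13.3 and 18.0 CPM in ND livers. The log2 fold change was 1.05 ± 0.14 (SE, adjusted p = 0.00654), with both groups tight. Psmb9, a catalytic subunit of the immunoproteasome, was at 20.1, 20.9 and 17.8 CPM in HFD livers and at 11.3, 8.68 and 7.82 CPM in ND livers, a log2 fold change of 1.08 ± 0.19 (SE, adjusted p = 0.0276). These were 2 of 17 tested antigen presentation genes, with a median of 0.19; Psmb9 lost its call under the 8-locus term (adjusted p = 0.161). B2m and H2-K1, the most abundant, had adjusted p-values of 0.636 and 0.384. Tap1 and Psmb9 are transcribed away from each other on chromosome 17, and their promoter windows (250 bases before to 50 after the start) share 275 of 300 bases. The window of Tap1 is printed because it serves both genes, from RefSeq on GRCm38.p6 at chr17:34187306-34187605 on the plus strand, with the capitals marking a CCAAT box (CCAAT) and a GC box (GGGCGG, here on the other strand).
Tap1: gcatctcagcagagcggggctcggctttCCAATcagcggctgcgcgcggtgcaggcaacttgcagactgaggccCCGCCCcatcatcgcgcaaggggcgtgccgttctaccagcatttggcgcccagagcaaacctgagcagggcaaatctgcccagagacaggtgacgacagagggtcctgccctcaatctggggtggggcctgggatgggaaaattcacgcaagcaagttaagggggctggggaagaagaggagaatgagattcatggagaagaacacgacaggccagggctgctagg

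Of 32851 RefSeq mouse promoters of this length 37.4% hold CCAAT and 35.7% hold GGGCGG on either strand, so these matches are common. Promoters were found for 49 of the 65 called genes, 31 higher and 18 lower. GGGCGG was in 23 of the 31 and 8 of the 18, and CCAAT in 19 and 9. For every motif here a called gene counted if any promoter under its symbol matched, while the percentages are shares of single promoters. The counts and percentages are therefore not in the same unit, and no enrichment was tested. The pair GAAANNGAAA, a core of interferon response elements, is in 3.44% of all promoters and was in 1 of the 31, Vldlr, and in 0 of the 18. The direct repeat AGGNCANAGGNCA, to which PPAR-alpha and other nuclear receptors bind, is in 0.381% of all promoters and was in 1 of the 31 and 0 of the 18. That promoter, of Apoc2 at chr7:19677892-19678191 on the minus strand, is shown for this match, in capitals.
Apoc2: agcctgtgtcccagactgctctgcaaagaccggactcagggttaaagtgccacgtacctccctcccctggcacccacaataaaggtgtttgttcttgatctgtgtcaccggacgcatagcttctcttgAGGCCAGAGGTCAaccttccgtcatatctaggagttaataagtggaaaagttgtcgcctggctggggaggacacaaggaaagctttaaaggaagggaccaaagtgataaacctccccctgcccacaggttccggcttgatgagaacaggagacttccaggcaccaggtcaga
A letter match is no evidence of binding, and a repeat outside this window would not be seen.

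The Cyp3a family, cytochromes P450 that oxidise drugs, steroids and bile acids, fell most. Of 9 tested genes 5 were called lower and none higher, all 9 were negative, and 8 had every HFD liver below every ND liver, against 7.49% of all tested genes. The median log2 fold change was -3.10. DESeq2 called 8, and without ND replicate 1 7 were called. With the title code as a term 3 were called, and with the 8-locus level 1, Cyp3a59; the adjusted p was then 0.133 for Cyp3a11, 0.161 for Cyp3a41b, 0.0633 for Cyp3a25 and 0.0605 for Cyp3a57, while the list's median was -3.24. Cyp3a11, the main hepatic member in mouse and the counterpart of human CYP3A4, was at 467, 216 and 312 CPM in HFD livers and at 3501, 3542 and 1728 CPM in ND livers. The highest HFD liver was well under the lowest ND liver, ND replicate 3, and the log2 fold change was -3.14 ± 0.50 (SE, adjusted p = 0.0352). Cyp3a41b was at 28.8, 13.2 and 20.1 CPM in HFD livers and at 230, 263 and 103 CPM in ND livers (-3.26 ± 0.54, SE, adjusted p = 0.0458). Cyp3a41a, Cyp3a44 and Cyp3a16 had log2 fold changes of -3.10, -3.22 and -3.79 and adjusted p-values of 0.0508, 0.0629 and 0.074, with groups that did not overlap either.

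A milder set of Cyp3a genes was measured with less spread. Cyp3a25 was at 273, 289 and 308 CPM in HFD livers and at 601, 865 and 650 CPM in ND livers, a log2 fold change of -1.28 ± 0.19 (SE, adjusted p = 0.00928). Cyp3a59 was at 74.2, 81.1 and 82.2 CPM in HFD livers and at 184, 310 and 219 CPM in ND livers (-1.59 ± 0.21, SE, adjusted p = 0.00654). Cyp3a57 was at 24.1, 28.4 and 30.5 CPM in HFD livers and at 56.2, 104 and 69.8 CPM in ND livers (-1.47, adjusted p = 0.00928). The HFD livers of these 3 genes were close to one another and the ND livers were highest in replicate 2. Cyp3a13 was at 198, 188 and 282 CPM in HFD livers and at 208, 264 and 322 CPM in ND livers, with the groups overlapping (adjusted p = 0.589). The pseudogene Cyp3a63-ps was also called lower (-3.07), with 95% of its last 200 bases identical, after alignment, to Cyp3a41a and Cyp3a41b, which are 100% identical to each other there, so reads of these 3 may have been split among them. Cyp3a25 and Cyp3a59 were 94% identical in that stretch.

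The steeper and the milder set also differ in promoter sequence. After pairwise alignment over 300 bases the promoters of Cyp3a41a, Cyp3a41b, Cyp3a44 and Cyp3a16 were 91.3% to 97.3% identical to one another and 73.7% to 79% to that of Cyp3a11. Those of Cyp3a25, Cyp3a57 and Cyp3a59 were 90.3% to 96% identical to one another, and between the sets identity was 55.7% to 61%. The promoters of a pair from each set are printed to show it, from RefSeq on GRCm38.p6: Cyp3a11 at chr5:145879805-145880104 on the minus strand, Cyp3a41b at chr5:145584681-145584980 on the minus strand, Cyp3a25 at chr5:146009569-146009868 on the minus strand and Cyp3a59 at chr5:146079008-146079307 on the plus strand. Each reads 5' to 3' along its gene, and capitals mark TATAAA on either strand, present in 13.6% of all promoters.
Cyp3a11: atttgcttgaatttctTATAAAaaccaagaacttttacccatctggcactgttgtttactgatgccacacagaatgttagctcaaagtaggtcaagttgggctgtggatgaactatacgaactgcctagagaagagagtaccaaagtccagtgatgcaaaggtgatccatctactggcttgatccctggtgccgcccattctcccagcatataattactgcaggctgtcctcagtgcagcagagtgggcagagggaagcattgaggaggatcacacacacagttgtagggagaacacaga
Cyp3a41b: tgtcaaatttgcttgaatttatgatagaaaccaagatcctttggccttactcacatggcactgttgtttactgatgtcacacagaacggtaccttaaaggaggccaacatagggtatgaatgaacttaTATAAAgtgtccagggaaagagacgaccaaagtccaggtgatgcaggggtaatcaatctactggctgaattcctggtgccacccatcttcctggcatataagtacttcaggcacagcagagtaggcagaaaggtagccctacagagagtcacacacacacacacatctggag
Cyp3a25: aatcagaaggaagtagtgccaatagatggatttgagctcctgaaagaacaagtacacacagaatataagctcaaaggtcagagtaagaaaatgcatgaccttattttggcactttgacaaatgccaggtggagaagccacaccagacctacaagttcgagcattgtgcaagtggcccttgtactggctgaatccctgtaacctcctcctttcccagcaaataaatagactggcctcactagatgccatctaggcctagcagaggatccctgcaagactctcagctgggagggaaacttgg
Cyp3a59: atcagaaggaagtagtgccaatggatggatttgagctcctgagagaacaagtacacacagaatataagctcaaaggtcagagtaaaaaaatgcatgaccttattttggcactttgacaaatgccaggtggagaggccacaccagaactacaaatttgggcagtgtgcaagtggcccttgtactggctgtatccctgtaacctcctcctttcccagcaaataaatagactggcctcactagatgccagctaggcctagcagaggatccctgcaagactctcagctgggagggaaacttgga
TATAAA was in the first 2 and in neither of the last 2. The matches lie at different places in the 2 windows, both well before the transcription start, so they mark no shared position. Whether either acts as a TATA box was not tested. The called genes of the family lie in a cluster at chr5:145345279-146113287 (mm10), so they are not independent examples, and the 2 sets were told apart after their fold changes were seen.

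Other enzymes fell with them. Ces2a, a carboxylesterase that hydrolyses ester drugs and acylglycerols, was at 101, 159 and 104 CPM in HFD livers and at 292, 505 and 325 CPM in ND livers. The groups were well apart, at a log2 fold change of -1.63 ± 0.28 (SE, adjusted p = 0.0276), and it was the one call among 14 carboxylesterases, whose median was -0.19. It lost the call with the 8-locus level (adjusted p = 0.176) or the title code (0.0658) as a term. Hdc, which makes histamine from histidine, was at 2.72, 3.46 and 3.87 CPM in HFD livers and at 10.5, 10.4 and 10.7 CPM in ND livers (-1.64 ± 0.25, SE, adjusted p = 0.00928). The ND livers were almost identical for Hdc. Gstp1, a glutathione transferase, was at 608, 1148 and 638 CPM in HFD livers and at 2359, 1702 and 1401 CPM in ND livers and missed the threshold (adjusted p = 0.0617).

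In the endoplasmic reticulum, Dnajb9, a co-chaperone of BiP, was at 38.6, 26.9 and 32.8 CPM in HFD livers and at 50.3, 83.2 and 81.4 CPM in ND livers. ND replicate 1 was the lowest of its group, and the log2 fold change was -1.13 ± 0.20 (SE, adjusted p = 0.0276). It was 1 of 23 chaperone genes called, lost under the 8-locus term (adjusted p = 0.195), and the median of the list was -0.11; Hsp90b1 and Calr, the most abundant, had adjusted p-values of 0.534 and 0.807. Tmed9, a cargo receptor of the early secretory pathway, fell by 0.87 on the log2 scale. Cav2, caveolin-2, was at 3.53, 2.31 and 5.11 CPM in HFD livers and at 10.5, 10.7 and 10.1 CPM in ND livers (-1.51 ± 0.30, SE, adjusted p = 0.0458, and 0.133 under the 8-locus term). Its partner Cav1 was at 1.10, 3.46 and 3.71 CPM in HFD livers and at 4.37, 3.19 and 3.40 CPM in ND livers, with the groups overlapping, and the 6 tested genes of caveolae had a median of -0.42.

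Several genes of RNA handling and the cytoskeleton fell too. Rbm3, an RNA-binding protein known to respond to cold, was at 17.3, 13.9 and 17.0 CPM in HFD livers and at 38.6, 29.2 and 34.7 CPM in ND livers (-1.09, adjusted p = 0.0278). Its pseudogene Rbm3-ps fell as well (-1.32). The last 200 bases of their longest transcripts were 50% identical after alignment. Other stretches of the 2 genes were not compared and sharing of reads between them was not tested, so the 2 falls may not be separate. Sorbs2, an actin-linked adaptor, was at 27.6, 38.4 and 41.9 CPM in HFD livers and at 66.6, 94.9 and 71.3 CPM in ND livers (-1.11, adjusted p = 0.0315). Srsf2, a splicing factor, and Ddx39, an RNA helicase, had log2 fold changes of -0.61 and -0.72. Dna2, a nuclease and helicase of DNA replication, was at 8.40, 7.89 and 8.98 CPM in HFD livers and at 15.1, 17.1 and 14.5 CPM in ND livers (-0.88), and Nfxl1 was at 6.202, 7.80 and 7.62 CPM in HFD livers and at 10.7, 16.3 and 13.6 CPM in ND livers (-0.91). Meg3 and Rian, maternally expressed noncoding RNAs of the imprinted Dlk1-Dio3 domain, lie 32213 bases apart on chromosome 12. Meg3 was at 0.239, 0.481 and 0.124 CPM in HFD livers and at 2.06, 1.77 and 2.65 CPM in ND livers, and Rian at 0.191, 0.192 and 0.288 CPM in HFD livers and at 1.92, 1.55 and 1.58 CPM in ND livers. Both rested on 3 to 10 reads in each HFD liver. Med12l fell by 1.91 on the log2 scale, and Dnaic1, also called lower, rested on 2, 7 and 7 reads in HFD livers and on 25, 39 and 54 reads in ND livers.

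Called genes lay near each other on the chromosomes in places. Of the 65, 24 had another called gene within 500 kb. Each called gene was paired only with the next called gene along its chromosome, and pairs farther along were not counted. The 15 such next-neighbour pairs within 500 kb all had 1 direction. The Cyp3a cluster made 6 of these pairs, and 4 pairs overlapped in sequence. The same count was not made for all tested genes, so it is a description only.

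Cholesterol synthesis, interferon-stimulated and macrophage genes had no call in edgeR with all libraries. DESeq2 called 0, 1 and 0 of them, and edgeR without ND replicate 1 called 2, 1 and 0. None of 24 cholesterol synthesis genes was called, with a median of 0.20, and the median changed sign with the level of the 8 loci as a term (-0.19). Sc5d, a sterol desaturase and one of the list's abundant members, had an adjusted p of 0.432. None of 32 interferon-stimulated genes was called, with a median of 0.13; Ifi27 was at 83.9, 72.7 and 73.3 CPM in HFD livers and at 84.0, 67.6 and 61.9 CPM in ND livers. None of 18 genes of recruited and lipid-associated macrophages was called, with a median of -0.28, which also changed sign with the 8-locus term (0.14). Gpnmb, which marks lipid-laden macrophages, was at 0.191, 0.529 and 0.618 CPM in HFD livers and at 0.196, 0.221 and 0.553 CPM in ND livers, and Ccr2, of recruited monocytes, at 1.00, 2.07 and 2.06 CPM in HFD livers and at 1.08, 1.68 and 2.76 CPM in ND livers. In whole liver, fewer cells of a type and less RNA per cell cannot be told apart.

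Markers of the other liver cells gave no call in edgeR with all libraries, apart from Lipe, which the adipose tissue list shares with the droplet list. DESeq2 called 3 endothelial, 1 Kupffer cell and 1 cholangiocyte gene lower and 2 adipose genes higher, and edgeR with the 8-locus level called 1 cholangiocyte gene lower. All 14 sinusoidal endothelial genes were negative, with a median of -0.59; their summed CPM was 188, 196 and 224 in HFD livers and 235, 350 and 330 in ND livers. Stab2, the hyaluronan scavenger receptor of these cells, was at 11.9, 11.7 and 16.9 CPM in HFD livers and at 21.2, 35.3 and 30.1 CPM in ND livers (adjusted p = 0.129). ND replicate 1 was the lowest ND liver here, and without it Fcgr2b, Oit3 and Flt4 were called lower. All 12 Kupffer cell genes were negative, with a median of -0.36 and a summed CPM of 254, 234 and 418 in HFD livers and 260, 438 and 454 in ND livers. The Kupffer median changed sign under the 8-locus term (0.04), and 1 member was called lower without ND replicate 1. The 18 stellate cell and fibrosis genes had a median of -0.20, which also changed sign with that term (0.01). The 10 tested cholangiocyte genes had a median of -0.67. The summed CPM of all 12 genes of that list was 384 to 552 in HFD livers and 560 to 1646 in ND livers, the highest in ND replicate 1.

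Immune and fat cell markers varied by library. Ighm, the heavy chain of IgM, was at 7.97, 125 and 81.3 CPM in HFD livers and at 12.96, 5.45 and 14.97 CPM in ND livers, so HFD replicates 2 and 3 were high and replicate 1 was not. The summed CPM of 18 lymphocyte genes, 12 of them tested, was 17.1, 194 and 117 in HFD livers and 24.8, 15.9 and 30.6 in ND livers. Cd3e, of T cells, stayed under 1 CPM in all 6 libraries. Adipoq, which defines fat cells, was at 0.239, 1.15 and 0.701 CPM in HFD livers and at 0.0491, 0.0443 and 0.197 CPM in ND livers, and Plin1 at 0.143, 1.06 and 0.330 CPM in HFD livers and at 0.0491, 0.133 and 0.079 CPM in ND livers. Of the 10 adipose genes 8 were positive, with a median of 1.503, or 0.60 under the 8-locus term. Their summed CPM, mostly Car3, which hepatocytes also express, was 1417, 1060 and 1404 in HFD livers and 2229, 1485 and 992 in ND livers. The mean log2 deviation of the list was -0.42, 1.02 and 0.83 in HFD livers and -0.24, -0.53 and -0.66 in ND livers, so HFD replicate 1 sat among the ND libraries. The part of fat cell RNA in the lipid genes above was not tested. All 29 cytosolic ribosomal protein genes were negative, with a median of -0.28, and 17 of 20 secreted hepatocyte proteins were negative, with a median of -0.40. Neither list had a call in edgeR with all libraries and no added term. For ribosomal proteins 1 was called lower without ND replicate 1, 1 with the title code and 1 in DESeq2. For secreted proteins 1 was called lower without ND replicate 1 and 2 in DESeq2.

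Lists of death, stress and zonation genes had no call in edgeR with all libraries. DESeq2 called 2 necroptosis and apoptosis genes higher, 4 ATF4 targets lower and 2 pericentral genes higher. In edgeR without ND replicate 1, 2 necroptosis and apoptosis genes were called higher and 1 lower. That fit also called 1 ATF4 target higher and 1 lower, and 2 pericentral genes higher. Of 27 necroptosis and apoptosis genes none passed in edgeR with all libraries, with a median of 0.01. Ripk3, the kinase upstream of MLKL, was at 0.620, 0.289 and 0.742 CPM in HFD livers and at 0.442, 1.51 and 0.829 CPM in ND livers, and Ripk1 at 31.6, 32.4 and 32.1 CPM in HFD livers and at 27.6, 36.6 and 35.0 CPM in ND livers. Targets of the amino acid stress factor ATF4 had a median of -0.36 over 18 genes; the serine synthesis enzyme Psat1 was at 0.906, 0.529 and 1.15 CPM in HFD livers and at 3.00, 4.12 and 2.09 CPM in ND livers (adjusted p = 0.071). Major urinary proteins and male-biased genes had a median of -0.54 over 18 genes, and acute phase proteins -0.39 over 17. Pericentral hepatocyte genes had a median of 0.36 over 15 and periportal genes -0.04 over 17, the last turning to 0.35 under the 8-locus term. Medians of bile acid genes (0.09), glucose genes (0.21), other xenobiotic enzymes (0.09, and -0.05 with the 8-locus term), glutathione transferases (0.18), NRF2 targets (-0.10), respiratory chain subunits (0.14) and clock genes (0.22) came with no called member in edgeR with all libraries and no added term. Cell cycle, neutrophil, pancreas and red blood cell genes had none either. DESeq2 called 4 glutathione transferases higher and 3 lower, and 1 xenobiotic enzyme higher and 3 lower. It called 2 bile acid genes and 1 NRF2 target lower, and 1 glucose and 1 cell cycle gene higher. Without ND replicate 1, edgeR called 1 clock gene higher and 2 lower, 2 cell cycle genes higher and 1 xenobiotic enzyme lower. That fit also called 1 glucose gene and 1 glutathione transferase higher, and the 8-locus fit 1 transferase lower.

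Set beside wild-type livers, the 65 genes moved mostly the same way. In WT HFD against WT ND livers 766 genes were called (4.23%, with 2.02% higher and 2.21% lower), and 37 of the 65 were among them with the same direction and none with the other, which is 56.9% of the Mlkl-/- calls and 4.83% of the wild-type calls. Osbpl3 had a log2 fold change of 2.60 ± 0.27 in Mlkl-/- livers and 2.96 ± 0.26 in wild-type livers (SE), Gpc1 2.28 ± 0.29 and 2.32 ± 0.29, and Cyp3a11 -3.14 ± 0.50 and -2.69 ± 0.49. Of the 28 not called in wild type, Cav2 and Ddx39 had the opposite sign there. No gene passed the test of the difference between the 2 responses (the diet by genotype interaction, 0.00% of genes), and the smallest adjusted p was 0.338. Of all 18098 tested genes, 1889 had an unadjusted p under 0.05 for that difference, among them 23 of the 65. The 65 were called on the Mlkl-/- response, which is part of that difference, so the 23 are a description and not a test. DESeq2 called 50 for that difference and limma-voom 0. Among the other edgeR fits, 4 genes were called for it without Mlkl-/- ND replicate 1, 1 without WT HFD replicate 3 and 1 with no filter beyond 1 count.

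**Figure D5:**
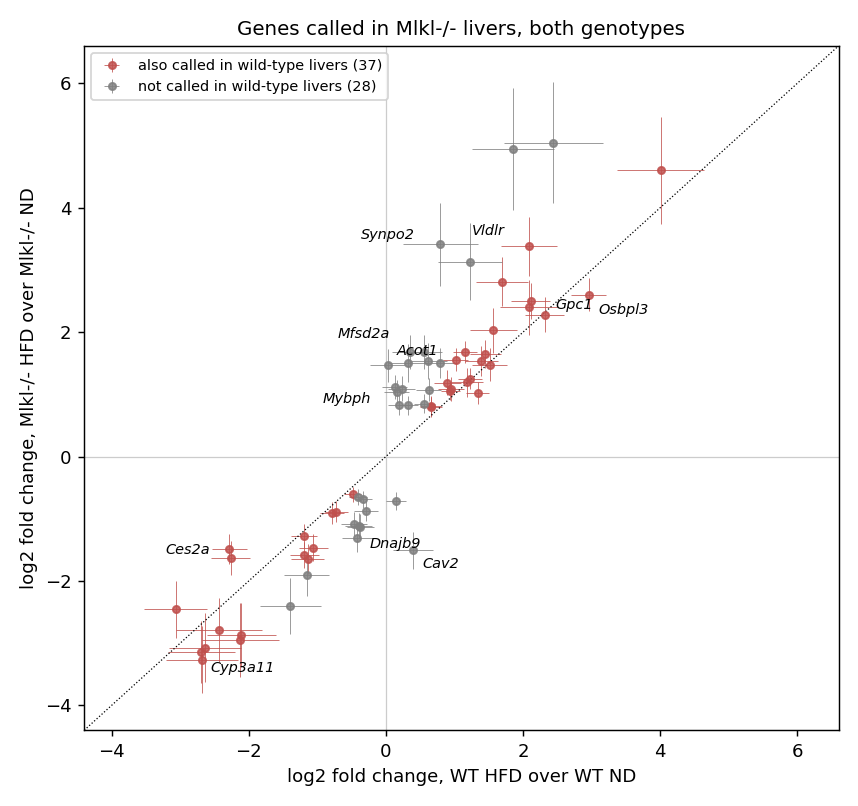
Log2 fold change of the 65 genes called in Mlkl-/- livers: Mlkl-/- HFD over ND (vertical axis) against WT HFD over ND (horizontal axis), with bars of 1 SE and a dotted line of equality. The 37 genes also called in wild type (red) run along the line, and among the 28 others (grey) Acot1, Mfsd2a, Mybph and Cav2 lie near or past a wild-type change of 0.

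The ND livers were where most of those 28 genes differed between the genotypes. For 23 of the 28 the Mlkl-/- ND livers lay wholly above or below the WT ND livers (82.1%, against 10.5% of all tested genes), and for 6 the Mlkl-/- HFD livers lay apart from the WT HFD livers (21.4%, against 21.4% of all tested genes). The genes were called partly on their Mlkl-/- ND values, so this count is a description and not a test. Acot1 is the plainest case. Its Mlkl-/- HFD livers, at 68.2, 38.2 and 47.9 CPM, were in the range of the WT HFD livers at 48.7, 33.9 and 63.3 CPM, while its Mlkl-/- ND livers, at 13.2, 19.1 and 23.5 CPM, were under the WT ND livers at 50.5, 48.8 and 43.7 CPM. The difference between the responses was 1.44 ± 0.36 on the log2 scale (SE, unadjusted p = 0.00153, adjusted p = 0.338). Mfsd2a had the same layout, with Mlkl-/- ND livers at 44.5, 31.1 and 50.9 CPM and WT ND livers at 97.2, 140 and 90.5 CPM, and so had Adora1, at 14.2, 17.9 and 15.1 CPM in Mlkl-/- ND livers and at 35.6, 37.7 and 39.6 CPM in WT ND livers.

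Genes that fell showed it the other way up. Cav2 was at 3.53, 2.31 and 5.11 CPM in Mlkl-/- HFD livers and at 5.33, 6.71 and 6.27 CPM in WT HFD livers. It was at 10.5, 10.7 and 10.1 CPM in Mlkl-/- ND livers and at 4.79, 2.70 and 6.29 CPM in WT ND livers, the opposite order. Its difference between the responses was -1.91 ± 0.41 (SE, unadjusted p = 0.000346, adjusted p = 0.338). Ddx39 was at 18.96, 18.3 and 18.4 CPM in Mlkl-/- ND livers and at 13.1, 12.9 and 10.8 CPM in WT ND livers. Dnajb9 was at 50.3, 83.2 and 81.4 CPM in Mlkl-/- ND livers and at 41.9, 42.9 and 38.9 CPM in WT ND livers, and its HFD livers overlapped between the genotypes. A test of Mlkl-/- ND against WT ND was not part of this comparison.

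Some gene lists with calls in wild type had none in Mlkl-/- livers. Cholesterol synthesis had 0 calls in Mlkl-/- livers and 14 of 24 higher in wild-type livers (median 0.20 and 0.95), interferon-stimulated genes 0 and 10 of 32 (median 0.13 and 0.78), and recruited macrophages 0 and 6 of 18 (median -0.28 and 1.39). In the lower direction, cytosolic ribosomal proteins had 0 and 14 of 29 (median -0.28 and -0.63) and secreted hepatocyte proteins 0 and 12 of 20 (median -0.40 and -0.75). The difference between the responses was tested gene by gene and, in edgeR with all libraries, passed for none of their members. Its unadjusted p was under 0.05 for 12 of 24 cholesterol synthesis, 13 of 32 interferon-stimulated and 14 of 18 recruited macrophage genes. For ribosomal proteins it was 5 of 29 and for secreted proteins 4 of 20, against 1889 of all 18098 tested genes. The lists were chosen with earlier results known, so these counts are no test of a list. Gpnmb was at 0.191, 0.529 and 0.618 CPM in Mlkl-/- HFD livers and at 7.25, 4.76 and 0.8196 CPM in WT HFD livers, and its difference had an unadjusted p of 0.00663 and an adjusted p of 0.395. Stab2 was at 11.9, 11.7 and 16.9 CPM in Mlkl-/- HFD livers and at 56.8, 36.2 and 29.4 CPM in WT HFD livers (unadjusted p = 0.00227, adjusted p = 0.34). The 8-locus level is high in every Mlkl-/- HFD replicate, in WT HFD replicates 2 and 3 and in Mlkl-/- ND replicate 1. It falls on these comparisons unevenly, and with it as a term 2 genes were called for the difference.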

How the data were processed

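Liver RNA of 12 mice was measured, and the 6 Mlkl-/- libraries are compared here. Total RNA was isolated with Trizol and RNeasy columns, 100 ng went into each QuantSeq 3' library, and a NextSeq 500 was used, per the labels' protocols. Cutadapt 1.9, HISAT2, featureCounts, limma and the mm10 build are named, per the submitters' processing notes; no source used here gives the annotation, the strand setting or the handling of reads with several matches. The file deposited by the authors holds unnormalized counts per gene and library for 51912 Ensembl identifiers, of which 51633 have a symbol and a GENCODE M21 position.

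Groups follow the genotype and diet labels, and replicates are numbered in accession order. Genes were kept by filterByExpr (minimum count 10, minimum total 15) and fitted in edgeR 4.0.16 (R 4.3.3) with TMM scaling, 1 mean per group over all 12 libraries and 8 residual degrees of freedom. HFD was set against ND by the robust quasi-likelihood test with Benjamini-Hochberg adjustment over 18098 genes and a threshold of 0.05. SE is the fold change divided by the root of its F statistic. Alternatives used limma 3.58.1, DESeq2 1.42.0, other scalings and filters, the title code, the 8-locus level and leaving out each library; a fit of the 6 Mlkl-/- libraries with the code as a term was chosen after seeing the data. The procedure was tested on simulated data. Animals are numbered separately in the labels, so replicates were taken as animals. Counting error at 20721493 to 26535219 counts is small beside their spread over all genes together. This was not shown for genes that rest on few reads, such as Ctse, Zfp423, Vldlr, Meg3 and Rian.

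The members and the 43 gene lists were chosen with earlier results of these data known, so lists are given as counts and medians, without a test. Values in every library are printed for up to 15 called named genes per direction with the largest change, groups that do not overlap and 5 CPM or more on average, for called list members, for the 2 most abundant members of a list and for cell markers. Cd36, Cidea, Cidec, Mogat1, Apoa4, Cyp4a14, Gstp1, Psat1, Cav1, Ripk1 and Ripk3, and other list members outside that rule, were named after their values were seen. Promoters (250 bases before to 50 after the start) come from RefSeq on GRCm38.p6. A few genes that the naming rule takes are not reported here.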

Additional observations from a re-analysis of the deposited data

How the results depend on the processing

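No paired analysis was possible because no animal number in the labels recurs across groups. The Mlkl-/- count of 65 became 100 with library size only, 171 with no filter beyond 1 count, 514 in DESeq2, 32 in limma-voom, 27 with the 8-locus level as a term, 8 with the 6 Mlkl-/- libraries only, and 19 with those 6 and the title code as a term. Leaving out 1 library gave 13 to 729: the 729 came without Mlkl-/- ND replicate 1 and the 13 without Mlkl-/- ND replicate 3, and 37, 42, 27, 28, 43 and 15 came without WT ND replicates 1 and 2, Mlkl-/- ND replicate 2, WT HFD replicates 1 and 2 and Mlkl-/- HFD replicate 1. The cause of these moves was not tested. The interaction count of 0 became 50 in DESeq2, 2 with the 8-locus level, 1 with no filter, and 0 to 4 with 1 library left out, the 4 without Mlkl-/- ND replicate 1. The wild-type count of 766 became 1465 in DESeq2, 158 with the 8-locus level and 63 to 1233 with 1 library left out. No value of the tests reversed. Of the values of single genes under the alternatives, 5197 kept their direction and their side of the threshold, 471 lost the call, 86 gained one and 45 moved beyond 1 SD; of list medians 408 stayed within the spread and 22 moved. Medians that lay near 0 (necroptosis and apoptosis, periportal, other xenobiotic, NRF2, chaperone, heparan sulfate, cell cycle, red blood cell and pancreas genes) changed sign under at least 1 setting, and those of cholesterol synthesis, recruited macrophage, Kupffer and stellate cell genes did so with the 8-locus level.

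With 3 animals a group, a change must be large against the spread of a gene to pass, so genes that miss the threshold are not shown to be unchanged.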
